A study of Mus musculus with 12 samples.

Results

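The genes described here are the collagen chains and the genes that modify, fold, cross-link and take up collagen, 46 of the 13233 genes measured by RNA-Seq in primary fibroblasts. They were chosen by name: every gene symbol of the collagen chain form (Col, a number, a and a number) and 17 named processing genes. The deposited table listed 29 collagen chains, of 44 such symbols in the GENCODE M21 mouse annotation, and all 17 processing genes. The 15 chain symbols not listed were Col2a1, Col4a3, Col4a6, Col6a4, Col6a6, Col9a1, Col9a2, Col10a1, Col13a1, Col17a1, Col19a1, Col22a1, Col25a1, Col26a1 and Col28a1, and the table holds only genes with at least 10 reads in every sample. The choice of genes used no expression value.

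The cells were hernia-associated fibroblasts (HAFs), cultured from the lower abdominal muscle (LAM) of Aromhum mice, which carry human aromatase, the enzyme that makes estradiol (E2) from testosterone. All 4 groups shared this genotype and were treated for 48 h, with 3 samples each. The first received vehicle (DMSO with ethanol), the next 10 nM E2, another both 10 nM E2 and fulvestrant at 100 nM, and the last only fulvestrant at 100 nM. Fulvestrant is an estrogen receptor antagonist that also lowers the receptor protein, and the groups ask how collagen transcripts respond to estrogen signaling and to its blockade. The cultures were enriched for adherent fibroblasts by preplating, no cells of wild-type mice were included, and the labels do not say whether the 3 replicates came from separate animals or cultures, so that p-values measure only the spread between these samples.

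Collagens are triple helices of 3 alpha chains, and their classes do different work: fibrillar collagens make the tensile fibers of muscle connective tissue, FACIT collagens coat the fibers, and type IV collagen makes the sheet of the basement membrane around each muscle fiber. Before secretion, prolyl and lysyl hydroxylases modify the chains and the chaperone Serpinh1 holds the helix. Outside the cell the propeptides are cut off and lysyl oxidases cross-link the fibers, which makes scar tissue stiff.

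Each value below is a normalized count, a read count divided by 1 factor per sample, and values in a series of 3 are always in the order of replicates 1, 2 and 3. Each sample held between 18827792 and 44040507 reads over the genes of the table, and the 46 genes took from 1.97% to 3.51% of the normalized total. All 7 fibroblast markers were listed, and none of the 6 myogenic or 4 adipocyte markers. Of the other cell types that make collagen, 1 of 5 endothelial markers (Tek), 3 of 5 mural markers, 2 of 4 Schwann cell markers and 2 of 5 immune markers were listed, and the defining markers Pecam1, Cdh5, Rgs5, Sox10 and Ptprc were not. Samples of replicate 1 deviated together, away from those of replicates 2 and 3, and the changes were tested with limma with the replicate number as a block. Calls required a fold change over 1.2 together with an adjusted p-value under 0.05 (Benjamini-Hochberg, over all genes). In bulk RNA, fewer cells of a type and less RNA per cell cannot be told apart.

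Fulvestrant changed the collagen genes in both directions, and E2 changed few. Between E2 and E2 plus fulvestrant, 16 of the 46 genes were called (34.8%), 7 higher and 9 lower with fulvestrant, beside 9.60% of all genes (4.97% higher and 4.62% lower). Between vehicle and fulvestrant alone 18 were called (39.1%), 8 higher and 10 lower, beside 12.5% of all genes (6.76% higher and 5.69% lower). The balance over all genes depended on the scaling: with CPM it was 4.34% higher and 5.09% lower with E2 present and 5.20% and 7.19% without it, and quantile normalization gave 4.59% and 4.87% with E2 present and 6.20% and 5.97% without it. The collagen genes called with CPM were 6 higher and 9 lower with E2 present, beside 9.42% of all genes, and 8 higher and 12 lower without it, beside 12.4%. Between vehicle and E2 only 2 were called, both higher with E2, beside 0.0756% of all genes. The median log2 fold change over the 46 genes was -0.09, 0.04 and 0.09 in these comparisons, and over all genes 0.01 in each. The collagen genes were more abundant than most: 69.6% had a mean of 1000 or more, against 44.1% of all genes, and the part of abundance in the shares called was not tested.

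Every one of these calls needed the block. Without it 0 of the 46 genes were called in each comparison by limma, with 4, 6 and 8 at an unadjusted p-value under 0.05 for E2 against vehicle, E2 plus fulvestrant against E2, and fulvestrant against vehicle. Of all genes 0.00756%, 0.521% and 0.544% were called without it. Replicate 1 stood apart from replicates 2 and 3 in every group (described last), and leaving all samples of replicate 1 out gave 5, 21 and 20 called genes in these comparisons, beside 0.446%, 12.2% and 17.5% of all genes. Leaving out replicate 2 gave 0, 6 and 10, beside 0.00%, 2.58% and 4.08%, and leaving out replicate 3 gave 0, 4 and 8, beside 0.00%, 2.39% and 3.02%. The calls over all genes thus rose and fell with the same samples. Fitting only the 2 groups compared, with the block, changed some calls. Between E2 and E2 plus fulvestrant it lost Col3a1 (adjusted p = 0.0562), Col1a2 (0.0915) and Col7a1 (0.0965) and gained Loxl1 (0.0207), which gave 14, beside 8.68% of all genes. Between vehicle and fulvestrant it lost 8 and gave 10, beside 5.23% of all genes. The genes lost were Plod2 (0.0504), P4ha3 (0.0541), Col20a1 (0.0674), Loxl2 (0.0678), Col1a1 (0.112), Loxl1 (0.141), Mrc2 (0.145) and Col3a1 (0.155). Between vehicle and E2 it gained Col8a2 (0.0236), lower with E2, which gave 3, beside 0.431%. In all fits that left out a replicate number 4 genes were called in both fulvestrant comparisons: Col4a2, Col5a3, Col12a1 and P4ha2. Each of the other genes called with fulvestrant lost such a call without all of replicate 2 or all of replicate 3. Between vehicle and E2, 30 of the 46 genes moved the same way in 3 of 3 replicate numbers and 7 had groups without overlap, beside 39.0% and 5.19% of all genes. Between E2 and E2 plus fulvestrant these counts were 31 and 9, beside 50% and 12.5%, and between vehicle and fulvestrant 29 and 10, beside 45.1% and 11.1%. Between fulvestrant alone and E2 plus fulvestrant they were 12 and 0, beside 23.8% and 2.42%.

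**Figure D1:**
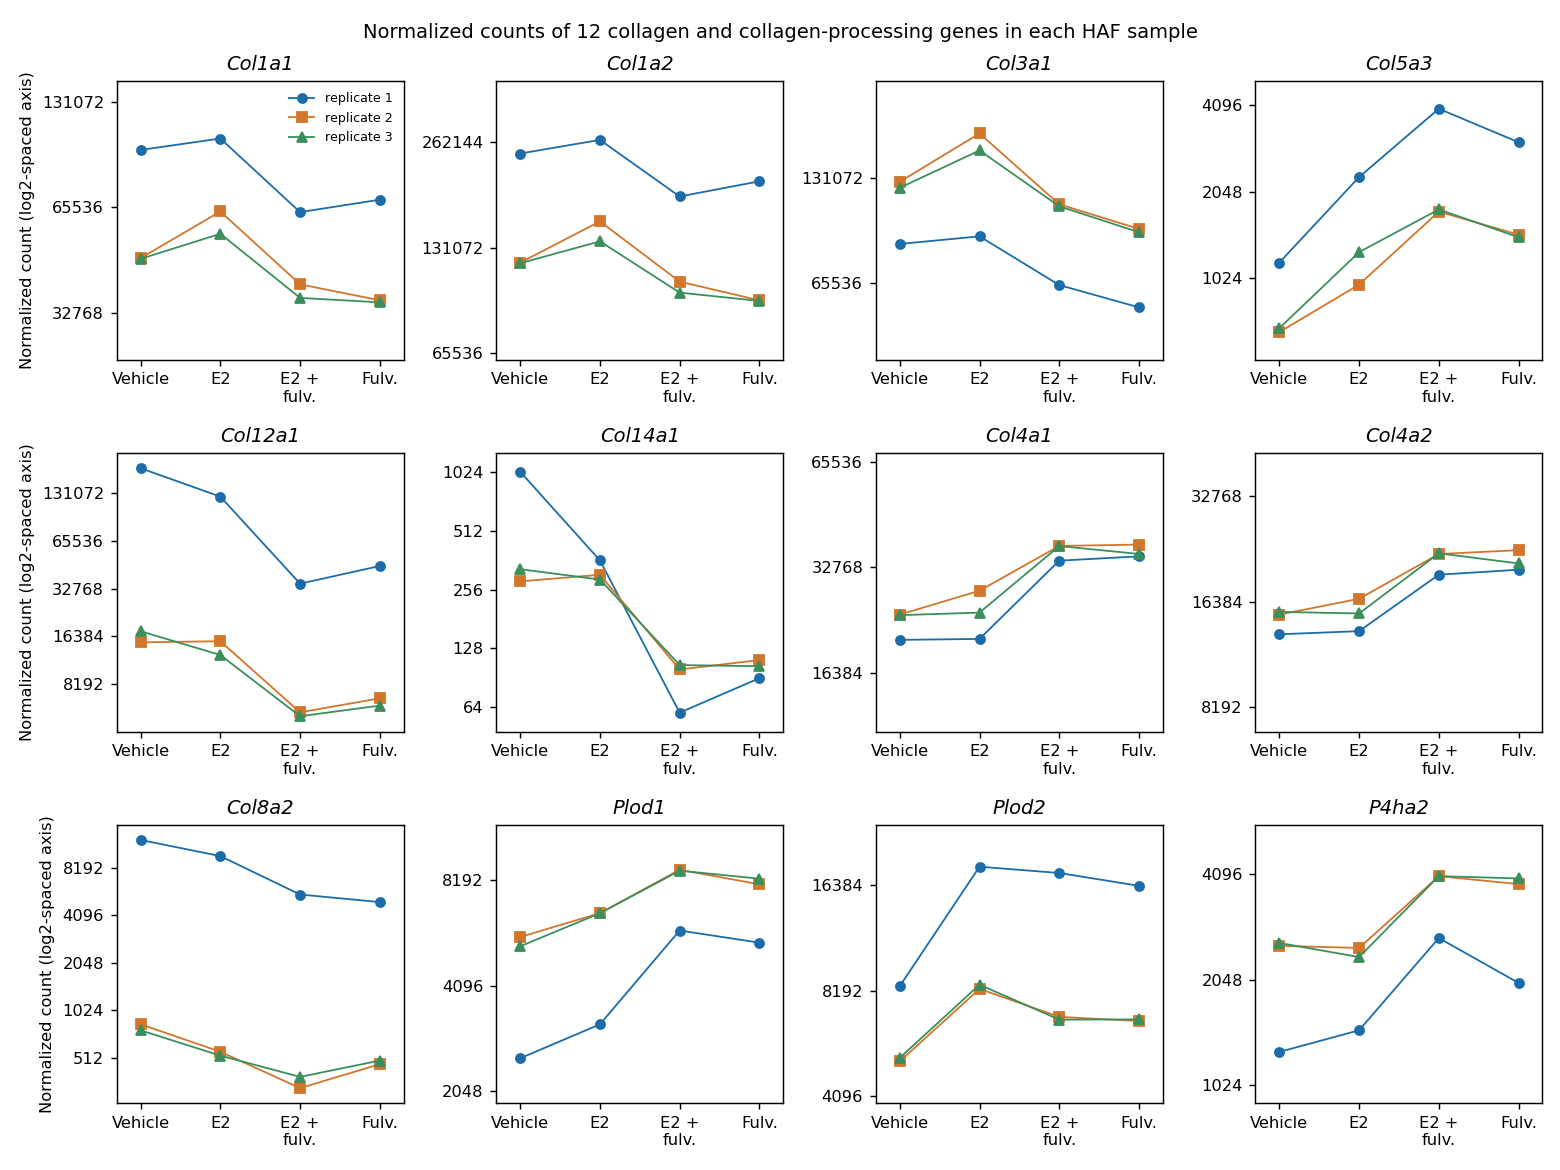
Normalized counts (log-spaced vertical axis) of 12 collagen and processing genes in the 4 groups, 1 point per sample with the 3 replicate numbers joined by lines. Col1a1, Col1a2, Col3a1, Col12a1 and Col14a1 were lower with fulvestrant in all 3 replicate numbers, Col4a1, Col4a2, Col5a3, Plod1 and P4ha2 were higher, and replicate 1 lay far from the other 2 for Col12a1 and Col8a2.

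The highest levels per kb were those of type I and III chains, the main chains of scar fibers, and of 2 processing genes. Per kb of the longest principal transcript, the mean over the 12 samples was 28263 for Col1a2, 19208 for Col3a1, 18045 for the chaperone Serpinh1, 16435 for Pcolce, which enhances propeptide removal, and 9676 for Col1a1. With vehicle the per-kb levels were 29963 ± 13486 for Col1a2, 20102 ± 4216 for Col3a1 and 10617 ± 4737 for Col1a1 (SD, n = 3), so the mean ± SD ranges of Col1a2 and Col3a1 overlapped. Lox (8470), Col6a1 (7277) and Col4a1 (4534) came next, and Col4a4 was lowest at 4.39. Col12a1 stood at 3457 per kb, with most of it in replicate 1. The order of genes depends on the transcript length used, because reads were counted over all exons of a gene.

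Of the 4 listed type IV chains, Col4a1 and Col4a2 rose with fulvestrant, and the promoter windows of these 2 genes overlap. Col4a1 and Col4a2 encode the chains of the common basement membrane heterotrimer and lie head to head on chromosome 8, Col4a1 on the minus strand and Col4a2 on the plus strand. Their annotated starts are 21 bases apart. Their RefSeq promoter windows (250 bases before to 50 after each start, build GRCm38.p6) are shown because both genes changed alike, and that of Col5a3 because it had the largest rise with fulvestrant alone. The windows are chr8:11312777-11313076 (minus strand) for Col4a1, chr8:11312555-11312854 (plus strand) for Col4a2 and chr9:20815018-20815317 (minus strand) for Col5a3. Capitals mark 2 motifs on either strand, the GC box (letters GGGCGG) and the element named by its letters CCAAT.
Col4a1: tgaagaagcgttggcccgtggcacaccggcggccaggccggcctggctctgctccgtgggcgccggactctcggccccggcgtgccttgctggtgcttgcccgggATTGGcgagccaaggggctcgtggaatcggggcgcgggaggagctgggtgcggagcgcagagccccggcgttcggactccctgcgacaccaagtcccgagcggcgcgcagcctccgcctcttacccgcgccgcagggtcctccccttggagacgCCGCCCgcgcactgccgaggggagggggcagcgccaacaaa
Col4a2: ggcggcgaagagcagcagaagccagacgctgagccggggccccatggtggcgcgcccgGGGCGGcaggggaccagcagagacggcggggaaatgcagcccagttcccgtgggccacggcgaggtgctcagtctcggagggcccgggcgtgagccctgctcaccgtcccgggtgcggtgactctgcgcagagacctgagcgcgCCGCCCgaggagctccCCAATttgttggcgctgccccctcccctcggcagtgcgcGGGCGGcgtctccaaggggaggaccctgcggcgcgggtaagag
Col5a3: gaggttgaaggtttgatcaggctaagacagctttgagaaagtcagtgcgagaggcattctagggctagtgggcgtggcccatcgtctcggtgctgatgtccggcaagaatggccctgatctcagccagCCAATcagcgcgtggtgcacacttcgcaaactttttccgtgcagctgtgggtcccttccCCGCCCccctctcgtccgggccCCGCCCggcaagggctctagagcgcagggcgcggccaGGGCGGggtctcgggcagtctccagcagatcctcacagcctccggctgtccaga

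The Col4a1 and Col4a2 windows overlap by 78 bases on opposite strands. A GC box lay in all 3 windows, as in 35.7% of the 32851 promoter windows of all genes in the RefSeq table, and the CCAAT element in all 3, as in 37.4%. The only GC box of the Col4a1 window lies after its start. It is the same site as a GC box of the Col4a2 window, inside the overlap, and was counted for both. Of the 46 genes, 34 had a window (37 windows in all), of which 28 held a GC box and 12 the CCAAT element. The AP-1 element TGANTCA was in 1 of the 37 (Col6a1), against 7.81% of all, and TATAAA in 5 of the 37, against 13.6%. Both strands were searched, and none of these motifs contains another. A match describes only letters in this window.

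Col4a1 normalized counts were 20342, 24021 and 23928 with vehicle, and 20468, 28103 and 24333 with E2. They were 34238, 37715 and 37692 with E2 plus fulvestrant, and 35216, 38055 and 35780 with fulvestrant alone. Every fulvestrant sample exceeded every sample without it. The change was 0.60 ± 0.08 (log2, SE; 1.51-fold, adjusted p = 0.000871) between E2 and E2 plus fulvestrant, and 0.68 ± 0.08 (1.60-fold, adjusted p = 0.000378) between vehicle and fulvestrant. Col4a2 read 13218, 15042 and 15315 with vehicle, 13494, 16693 and 15154 with E2, 19556, 22403 and 22510 with E2 plus fulvestrant, and 20206, 22979 and 21058 with fulvestrant alone. It rose by 0.51 ± 0.06 (adjusted p = 0.000366) and 0.56 ± 0.06 (adjusted p = 0.000215) in the same comparisons, again without overlap of the groups.

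The other type IV chains did not pass. Col4a5, on the X chromosome, changed by 0.03 ± 0.10 and 0.16 ± 0.10 in the 2 fulvestrant comparisons, and the scarce Col4a4, between 26.8 and 76.9 in all samples, by -0.33 ± 0.20 and 0.23 ± 0.20. Endothelial and mural cells also make type IV collagen. The single listed endothelial marker, Tek, ranged from 65.1 to 166 with E2 (median 157) and from 83.7 to 259 with E2 plus fulvestrant (median 244). Its change there was 0.54 ± 0.17, close in size to that of Col4a1, and was not called (adjusted p = 0.0686). With vehicle Tek ranged from 58.4 to 277 (median 262) and with fulvestrant from 70.6 to 193 (median 182), a change of -0.26 ± 0.17 (adjusted p = 0.353), opposite in sign to that of Col4a1. The 3 listed mural markers summed to 2225 to 3405 with E2 and 2049 to 4392 with E2 plus fulvestrant, and to 2163 to 3316 with vehicle and 1977 to 4303 with fulvestrant. These ranges overlapped between groups. The 2 listed Schwann cell markers, of another cell type with a basement membrane, summed to 159 to 214 with E2 and 114 to 150 with E2 plus fulvestrant, and to 181 to 223 with vehicle and 112 to 171 with fulvestrant, lower with fulvestrant without overlap. The part of these cells in the type IV change was not tested.

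Of the 10 fibrillar chains listed, 3 were called lower with fulvestrant in each comparison, and Col5a3 was called higher in both. The 3 were Col1a1, Col1a2 and Col3a1 with E2 present, and Col1a1, Col3a1 and Col27a1 without it. Col1a1 and Col1a2 make type I collagen, the main fiber of scar and tendon, and Col3a1 makes type III, its companion in young and elastic tissue. Col1a1 (chromosome 11) read 95391, 46852 and 46627 with vehicle, 102846, 63651 and 54982 with E2, 63386, 39438 and 36068 with E2 plus fulvestrant, and 68797, 35503 and 35032 with fulvestrant. Replicate 1 was highest in every group, so the groups overlapped, but within each replicate number Col1a1 was lower with fulvestrant. Col1a1 fell by 0.67 ± 0.09 on the log2 scale (1.59-fold lower, adjusted p = 0.00133) between E2 and E2 plus fulvestrant. The drop was 0.43 ± 0.09 (1.35-fold lower, adjusted p = 0.0119) between vehicle and fulvestrant, and without fulvestrant replicate 2 the adjusted p was 0.0683.

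Col1a2 (chromosome 6) read 243523, 118816 and 118385 with vehicle, 266337, 155884 and 136720 with E2, 183608, 104916 and 97598 with E2 plus fulvestrant, and 202862, 92777 and 92403 with fulvestrant. It fell by 0.53 ± 0.14 (1.45-fold lower, adjusted p = 0.0286) between E2 and E2 plus fulvestrant. This call was lost without any 1 of E2 replicates 2 or 3 or the 3 E2 plus fulvestrant samples (highest adjusted p = 0.12). Between vehicle and fulvestrant it changed by -0.33 ± 0.14 and did not pass (adjusted p = 0.129). The ratio of Col1a1 to Col1a2 normalized counts, a comparison between samples and not of chain amounts, was 0.392, 0.394 and 0.394 with vehicle and 0.339, 0.383 and 0.379 with fulvestrant.

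Col3a1 (chromosome 1) read 84910, 127802 and 122828 with vehicle, 89271, 175523 and 156999 with E2, 64805, 110197 and 108746 with E2 plus fulvestrant, and 55970, 93719 and 91722 with fulvestrant. Here replicate 1 was the lowest of each group, opposite to type I. Col3a1 fell by 0.55 ± 0.12 (1.47-fold lower, adjusted p = 0.0115) and 0.49 ± 0.12 (1.40-fold lower, adjusted p = 0.017) in the 2 fulvestrant comparisons. The first call was lost without E2 replicate 3 or any 1 of the E2 plus fulvestrant samples (highest adjusted p = 0.0639), and the second without vehicle replicate 1, fulvestrant replicate 2 or fulvestrant replicate 3 (highest adjusted p = 0.0746).

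Col5a3, a minor chain of type V collagen, which starts and narrows type I fibers, had the largest rise of all 46 genes between vehicle and fulvestrant. Its counts were 1156, 660 and 682 with vehicle, 2300, 968 and 1257 with E2, 3987, 1741 and 1773 with E2 plus fulvestrant, and 3046, 1447 and 1417 with fulvestrant. The lowest value of each replicate number was with vehicle and the highest with E2 plus fulvestrant. Col5a3 rose by 0.71 ± 0.09 (1.64-fold, adjusted p = 0.000822) between E2 and E2 plus fulvestrant, and by 1.19 ± 0.09 (2.29-fold, adjusted p = 3.25e-05) between vehicle and fulvestrant. The main type V chains did not follow it: Col5a1 changed by -0.22 ± 0.08 and 0.09 ± 0.08, and Col5a2 by -0.21 ± 0.07 and -0.23 ± 0.07, none called. Col5a1 was called lower with E2 present once all of replicate 1 was left out (-0.28, adjusted p = 0.0235). Col5a2 had an adjusted p of 0.0428 against vehicle but a fold under 1.2. The ratio of Col5a3 to Col5a1 normalized counts was higher with fulvestrant in every replicate number, by 1.66-fold to 2.24-fold with E2 and by 2.15-fold in each without it.

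Col27a1, a fibrillar chain known from cartilage, read 573, 334 and 370 with vehicle, 471, 181 and 306 with E2, 256, 221 and 226 with E2 plus fulvestrant, and 259, 222 and 170 with fulvestrant. It fell by 0.95 ± 0.20 (1.93-fold lower, adjusted p = 0.0106) between vehicle and fulvestrant, where the groups did not overlap. The call was lost without fulvestrant replicate 3 (adjusted p = 0.0591), and with E2 present the change was -0.34 ± 0.20. Col11a1, Col11a2 and Col24a1 were not called, with log2 changes between -0.50 and 0.49 in the fulvestrant comparisons. Without all of replicate 1, Col11a1 (0.34, adjusted p = 0.0114) and Col11a2 (0.77, adjusted p = 0.0498) were called higher with E2 present, and Col24a1 lower without it (-0.77, adjusted p = 0.00423).

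The largest drops were those of the FACIT chains Col14a1 and Col12a1. Col12a1 and Col14a1 encode homotrimers that sit on type I fibers and tie them to the surrounding matrix. Col12a1 (chromosome 9) read 188320, 15042 and 17674 with vehicle, 124651, 15293 and 12517 with E2, 35252, 5446 and 5147 with E2 plus fulvestrant, and 45554, 6677 and 6005 with fulvestrant. Replicate 1 lay far above the others in every group and had the largest differences. Col12a1 fell by 1.53 ± 0.15 (2.89-fold lower, adjusted p = 0.000156) between E2 and E2 plus fulvestrant, and by 1.59 ± 0.15 (3.01-fold lower, adjusted p = 0.000119) between vehicle and fulvestrant. In replicates 2 and 3 the differences were -1.49 and -1.28 with E2, and -1.17 and -1.56 without it.

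Col14a1 (chromosome 15) read 1025, 282 and 325 with vehicle, 361, 305 and 288 with E2, 60.1, 99.9 and 105 with E2 plus fulvestrant, and 90.2, 112 and 104 with fulvestrant. Every fulvestrant sample lay below every sample without it. Col14a1 fell by 1.87 ± 0.40 (3.66-fold lower, adjusted p = 0.012) and by 2.15 ± 0.40 (4.45-fold lower, adjusted p = 0.00492) in the 2 comparisons. The first call was lost without E2 replicate 2 or E2 plus fulvestrant replicate 1 (highest adjusted p = 0.0585). Pair by pair, the difference between vehicle and fulvestrant was -3.49 in replicate 1, and -1.33 and -1.64 in replicates 2 and 3.

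Col20a1 fell by 0.59 ± 0.18 between vehicle and fulvestrant (adjusted p = 0.0469), from 1016, 310 and 362 to 861, 199 and 193, with overlap between the groups. It read 901, 165 and 296 with E2, and 763, 249 and 218 with E2 plus fulvestrant. That call was lost in 7 of the 12 fits that left out 1 sample (highest adjusted p = 0.201, without any 1 of vehicle replicates 2 or 3, E2 replicate 1, E2 plus fulvestrant replicates 1 or 3, or fulvestrant replicates 2 or 3). With E2 present its change was -0.03 ± 0.18. Col16a1, the most abundant FACIT transcript per kb after Col12a1, changed by -0.01 ± 0.10 and 0.15 ± 0.10, and the scarce Col9a3 by -0.45 ± 0.27 and 0.04 ± 0.27, neither called.

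**Figure D2:**
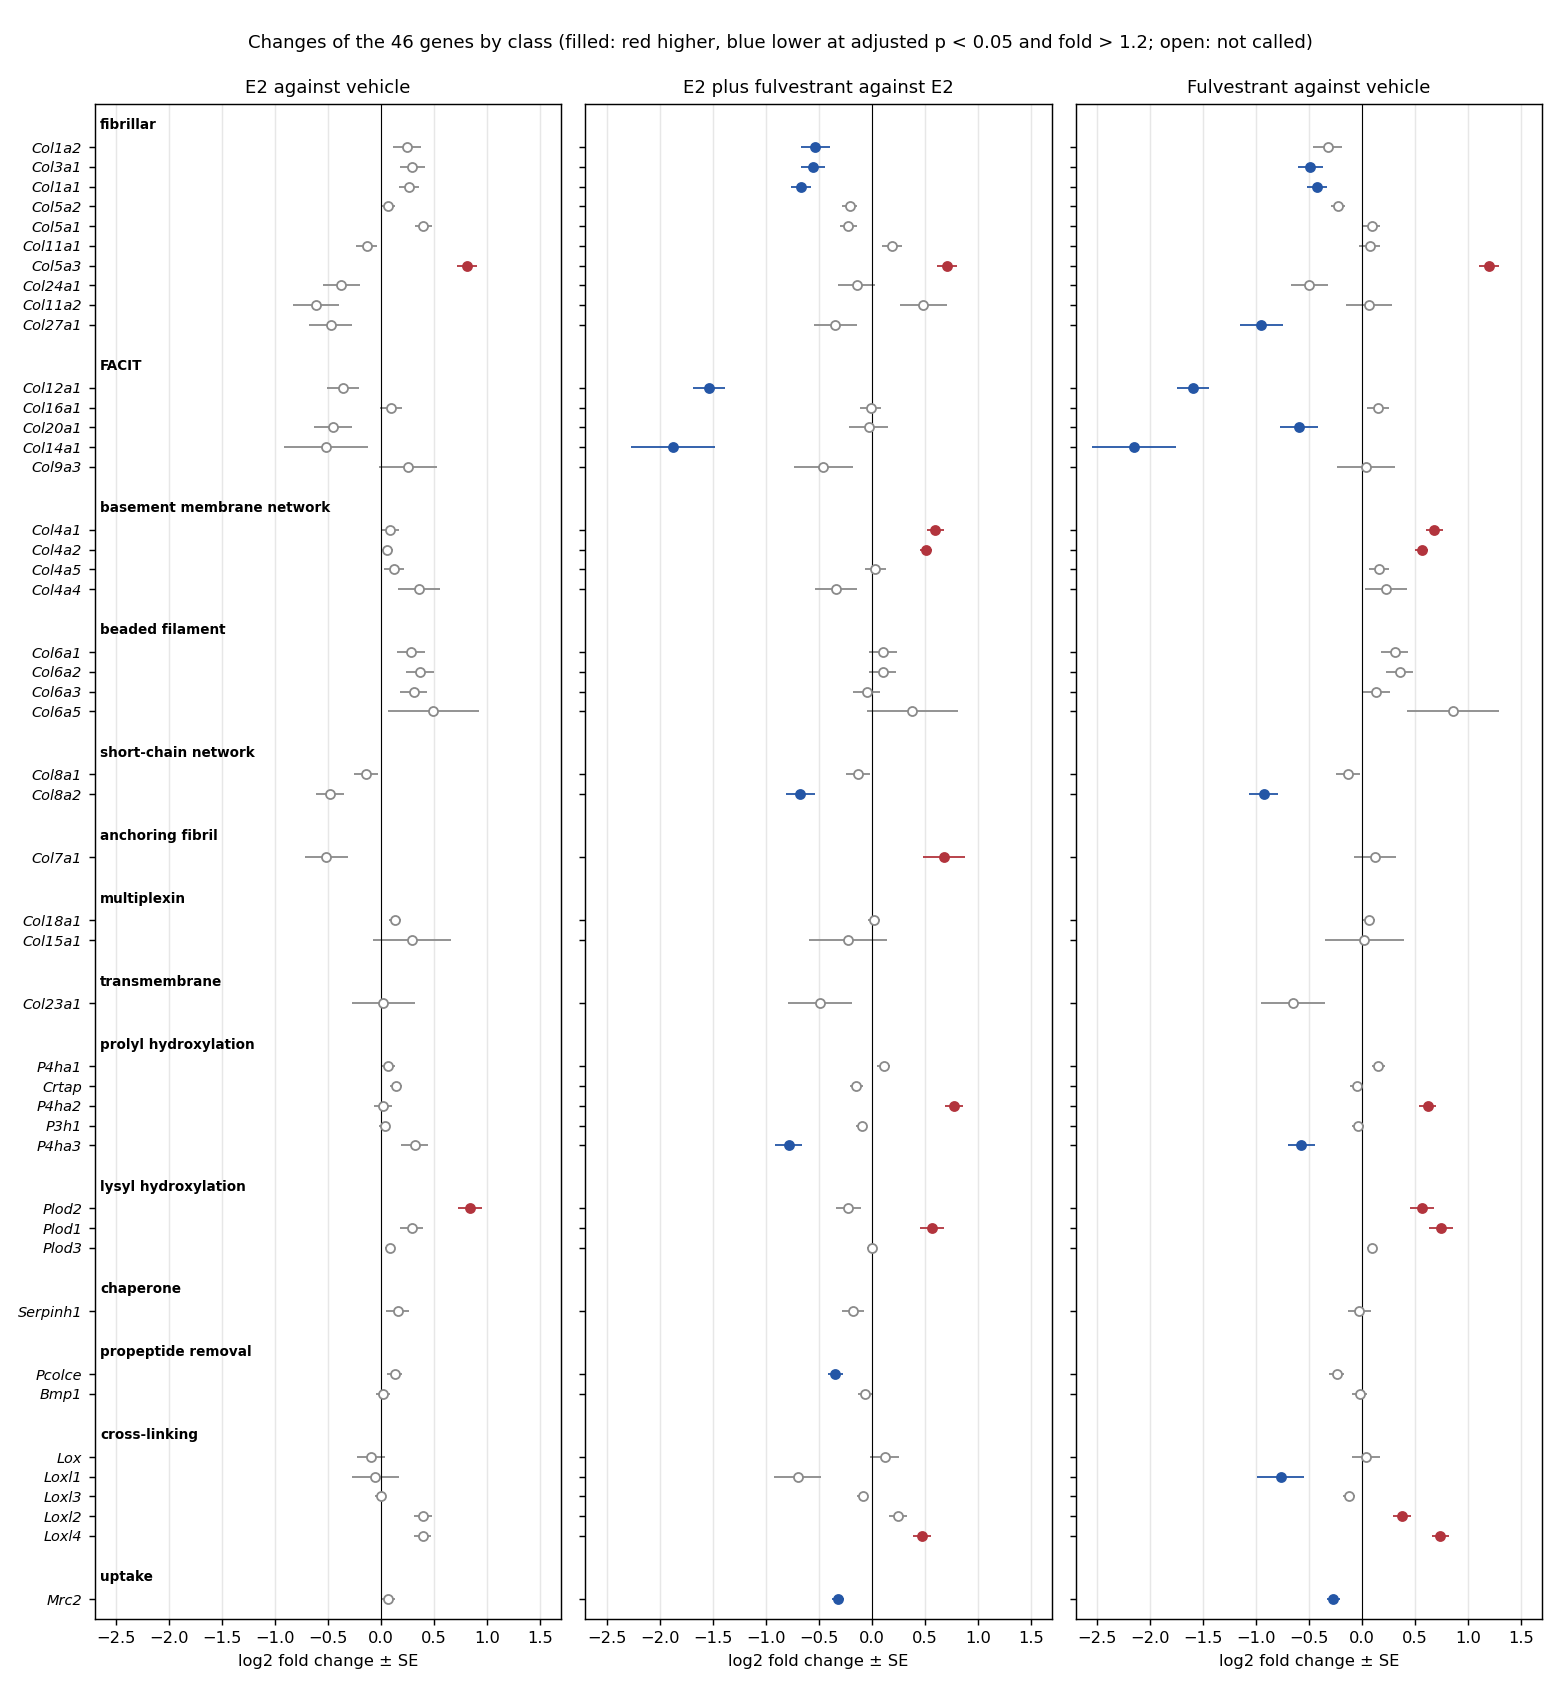
Log2 fold change ± SE (horizontal axis) of each of the 46 genes, grouped by collagen class or processing role, in 3 comparisons. Filled points were called (red higher, blue lower) and open points were not. E2 against vehicle has 2 filled points, Col5a3 and Plod2, and the fulvestrant comparisons have 16 and 18.

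Among the remaining chains, Col8a2 fell and Col7a1 rose in 1 comparison. Col8a2, a short-chain network collagen of Descemet's membrane and vessel walls, read 12254, 834 and 764 with vehicle, 9684, 559 and 528 with E2, 5530, 329 and 388 with E2 plus fulvestrant, and 4953, 466 and 491 with fulvestrant. It fell by 0.67 ± 0.14 (adjusted p = 0.00977) with E2 present and by 0.93 ± 0.14 (adjusted p = 0.00143) without it. The first call was lost without E2 plus fulvestrant replicate 2 (adjusted p = 0.0587). Its partner chain Col8a1 changed by -0.13 ± 0.11 in each comparison and was not called.

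Col7a1, the anchoring fibril chain, read 109, 71.3 and 129 with E2 and 175, 167 and 144 with E2 plus fulvestrant, a rise of 0.68 ± 0.20 with an adjusted p of 0.0489. This call was lost in all but 2 of the 12 fits that left out 1 sample, those without E2 replicate 3 or fulvestrant replicate 1 (highest adjusted p = 0.187), and without E2 replicate 2 the change was 0.43. Against vehicle, which read 148, 158 and 127, fulvestrant gave 188, 147 and 138, a change of 0.12 ± 0.20. None of the 4 beaded-filament chains of type VI collagen was called: Col6a1, Col6a2 and Col6a3 changed by -0.05 to 0.10 with E2 present and by 0.13 to 0.35 without it, and the scarcer Col6a5 by 0.38 ± 0.43 and 0.86 ± 0.43. The multiplexins Col15a1 and Col18a1, whose fragments are known as angiogenesis inhibitors, were also not called, with changes from -0.23 to 0.07. The transmembrane chain Col23a1 changed by -0.49 ± 0.30 and -0.65 ± 0.30 and was not called (adjusted p = 0.321 and 0.171). Its differences were 0.26 and 0.35 in replicate 1 and from -1.46 to -0.84 in replicates 2 and 3, and without all of replicate 1 it was called lower in both comparisons (-0.87, adjusted p = 0.00552, and -1.15, adjusted p = 0.000745).

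Among the prolyl hydroxylases, P4ha2 rose and P4ha3 fell. The P4ha genes encode the catalytic subunits of prolyl 4-hydroxylase, which stabilizes the triple helix. P4ha2 read 1276, 2563 and 2611 with vehicle, 1471, 2527 and 2380 with E2, 2697, 4050 and 4052 with E2 plus fulvestrant, and 2008, 3845 and 3991 with fulvestrant. It rose by 0.77 ± 0.08 (1.71-fold, adjusted p = 0.000239) and 0.62 ± 0.08 (1.53-fold, adjusted p = 0.000863) in the 2 fulvestrant comparisons. P4ha3 read 2009, 593 and 542 with vehicle, 1801, 867 and 801 with E2, 1098, 467 and 478 with E2 plus fulvestrant, and 1050, 470 and 397 with fulvestrant, and was lower with fulvestrant in every replicate number. P4ha3 fell by 0.78 ± 0.13 (adjusted p = 0.0032) and 0.57 ± 0.13 (adjusted p = 0.0132), the latter lost without fulvestrant replicate 3 (adjusted p = 0.0586) and smaller without vehicle replicate 1 (-0.37, adjusted p = 0.0194). The most abundant of the family, P4ha1, changed by 0.11 ± 0.06 and 0.15 ± 0.06 and was not called. P3h1 and its partner Crtap, which hydroxylate a single proline of type I chains, changed by -0.15 to -0.04.

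Of the 3 lysyl hydroxylases, Plod1 rose with fulvestrant in both comparisons. Plod1, which hydroxylates lysines of the helix, read 2540, 5636 and 5302 with vehicle, 3174, 6592 and 6588 with E2, 5881, 8766 and 8714 with E2 plus fulvestrant, and 5430, 7970 and 8269 with fulvestrant. It rose by 0.57 ± 0.11 (1.48-fold, adjusted p = 0.00829) and 0.75 ± 0.11 (1.68-fold, adjusted p = 0.00156). Plod2, which hydroxylates telopeptide lysines and so sets the stable cross-links of fibrotic tissue, read 8436, 5145 and 5264 with vehicle and 18492, 8283 and 8515 with E2. It read 17745, 6893 and 6767 with E2 plus fulvestrant, and 16309, 6704 and 6779 with fulvestrant. Vehicle was thus the lowest of the 4 groups in each replicate number. Plod2 rose by 0.57 ± 0.11 (1.48-fold, adjusted p = 0.00775) between vehicle and fulvestrant, and by 0.37 without all of replicate 1 and 0.38 without vehicle replicate 1, both called. Without all of replicate 2 or of replicate 3, Plod2 lost this call (adjusted p = 0.0624 and 0.065). With E2 present its difference of -0.22 ± 0.11 was not called. That difference was called once all of replicate 1 was left out (-0.30, adjusted p = 0.0039). Plod3 changed by 0.00 ± 0.04 and 0.09 ± 0.04.

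Of the 5 lysyl oxidases, which cross-link collagen and elastin outside the cell, Loxl4 rose in both fulvestrant comparisons. Loxl4 read 259, 359 and 366 with vehicle, 370, 493 and 422 with E2, 503, 659 and 625 with E2 plus fulvestrant, and 487, 568 and 574 with fulvestrant, a rise of 0.47 ± 0.08 (adjusted p = 0.00456) and of 0.74 ± 0.08 (adjusted p = 0.000323). Loxl2 read 530, 1080 and 1162 with vehicle and 770, 1402 and 1343 with fulvestrant, a rise of 0.37 ± 0.09 (adjusted p = 0.0144). It read 733, 1547 and 1336 with E2, and 987, 1580 and 1631 with E2 plus fulvestrant. The call against vehicle was lost without vehicle replicate 1 or 2 or fulvestrant replicate 2 (highest adjusted p = 0.0553), and with E2 present the change was 0.25 ± 0.09 and not called.

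Loxl1, known for cross-linking elastin, read 12055, 11646 and 11380 with vehicle, 10066, 12264 and 11512 with E2, 4638, 8358 and 8604 with E2 plus fulvestrant, and 3739, 9193 and 9378 with fulvestrant. It fell by 0.77 ± 0.22 (adjusted p = 0.0391) between vehicle and fulvestrant, a call lost in 8 of the 12 fits that left out 1 sample (highest adjusted p = 0.13), those without any 1 of the vehicle samples, E2 replicate 3, E2 plus fulvestrant replicates 2 or 3, or fulvestrant replicates 1 or 2. Replicate 1 carried most of its size: pair by pair the differences were -1.69, -0.34 and -0.28, and the change was -0.48 without vehicle replicate 1, -0.45 without fulvestrant replicate 1 and -0.31 without all of replicate 1, where it was called (adjusted p = 0.00412). With E2 present the change of -0.70 ± 0.22 missed the threshold (adjusted p = 0.0674). It was called in the blocked fit of the 2 groups alone (adjusted p = 0.0207), with replicate 1 against the others as the block (0.0467), without vehicle replicate 1 (0.0205), without fulvestrant replicate 1 (0.011) and without all of replicate 1 (-0.49, adjusted p = 0.000361), while other alternatives gave adjusted p-values up to 0.747. In both comparisons every fulvestrant sample lay below every other. The most abundant of the family, Lox, changed by 0.12 ± 0.13 and 0.04 ± 0.13 (95% interval of the latter -0.26 to 0.33), and Loxl3 by -0.08 ± 0.05 and -0.12 ± 0.05.

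Serpinh1, the collagen chaperone also called HSP47, read 39898, 41597 and 38623 with vehicle and 31495, 42462 and 45279 with fulvestrant. Its changes of -0.18 ± 0.11 and -0.03 ± 0.11 were not called (95% interval of the latter -0.26 to 0.21). Pcolce read 39264, 27098 and 25513 with E2 and 32774, 20058 and 20160 with E2 plus fulvestrant, and fell by 0.34 ± 0.07 (adjusted p = 0.0107). That call was lost without E2 replicate 2 or E2 plus fulvestrant replicates 2 or 3 (highest adjusted p = 0.0659), and against vehicle, which read 36165, 25017 and 22957, fulvestrant gave 32020, 18825 and 20831, a change under 1.2-fold. Without all of replicate 1 that change was called (-0.28, adjusted p = 0.0301). Bmp1, the protease that cuts the carboxyl propeptide, changed by -0.06 ± 0.07 and -0.02 ± 0.07. Mrc2, a receptor that takes up collagen fragments for breakdown, fell by 0.32 ± 0.06 (adjusted p = 0.00717) and 0.27 ± 0.06 (adjusted p = 0.0126), without overlap of the groups in either comparison. The first call held in each of the 12 fits that left out 1 sample. The second was lost without vehicle replicate 1, fulvestrant replicate 1 or fulvestrant replicate 2 (highest adjusted p = 0.0552), without all of replicate 1 (-0.24, adjusted p = 0.0341, fold under 1.2) and in the blocked fit of the 2 groups alone (adjusted p = 0.145).

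The 2 fulvestrant comparisons share no sample, but both come from 1 fit over all 12 samples. They share its replicate block and its estimate of the spread, so calls in both are not independent. Of the genes called, 13 were called in both, all in the same direction, 6 higher and 7 lower. This is 81.2% of the 16 called with E2 present and 72.2% of the 18 called without it, against 72.4% and 55.8% for all genes. The 6 genes higher in both were Col4a1, Col4a2, Col5a3, P4ha2, Plod1 and Loxl4, and the 7 lower in both were Col1a1, Col3a1, Col12a1, Col14a1, Col8a2, P4ha3 and Mrc2. Of these, Col1a1, Col3a1, P4ha3 and Mrc2 were not called against vehicle in the blocked fits of the 2 groups alone. Of the 21 genes called in either comparison, 20 had the same sign in both, and Plod2 was the exception. Across the 46 genes, which are not independent replicates, the log2 changes had a Pearson correlation of 0.88, against 0.75 across all genes.

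**Figure D3:**
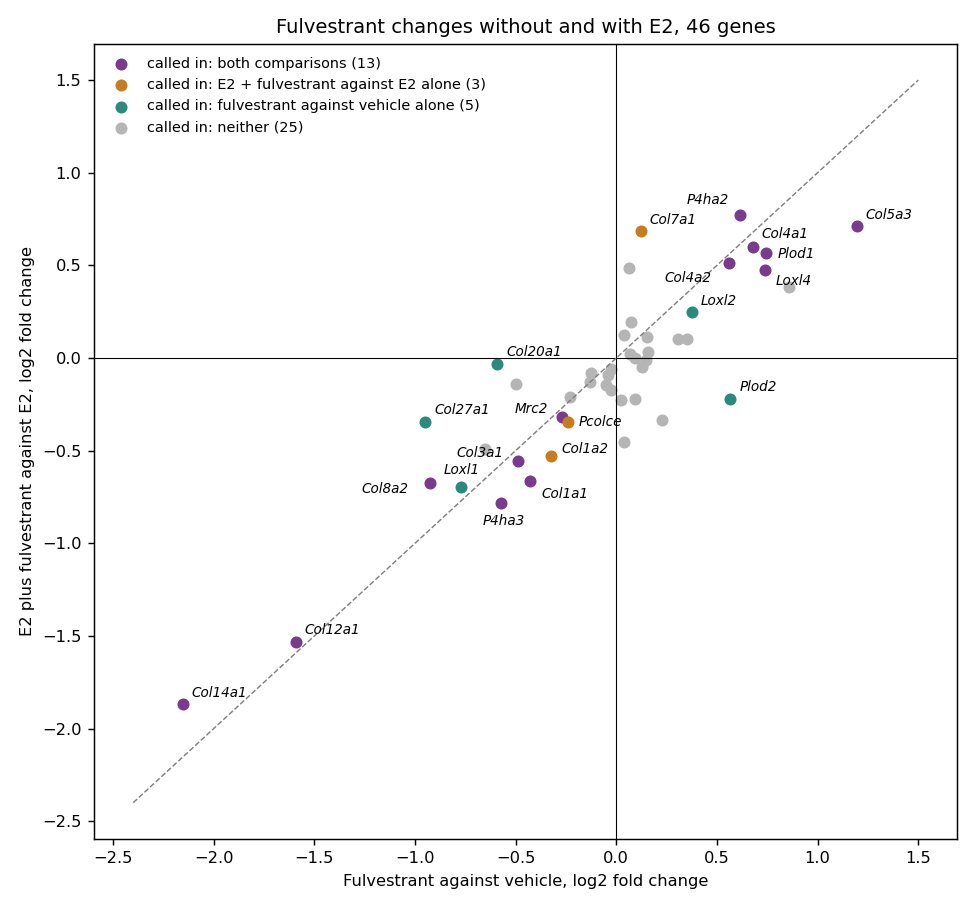
Log2 fold change of the 46 genes between vehicle and fulvestrant (horizontal) and between E2 and E2 plus fulvestrant (vertical), 1 point per gene, with the line of equal change dashed. Of the 46 points, 13 were called in both comparisons, and Plod2 was called without E2 while its change with E2 present was below 0.

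Within single samples, Col4a1 was higher relative to Col1a1 with fulvestrant. The ratio of Col4a1 to Col1a1 normalized counts was 0.213, 0.513 and 0.513 with vehicle and 0.199, 0.442 and 0.443 with E2. It was 0.540, 0.956 and 1.05 with E2 plus fulvestrant and 0.512, 1.07 and 1.02 with fulvestrant. The pairwise difference was 2.17-fold to 2.71-fold with E2 present and 1.99-fold to 2.40-fold without it, in every replicate number. The ratio of Col4a1 to Col4a2 stayed between 1.52 and 1.75 in all 12 samples. These ratios were chosen after the values of their genes were seen and are given without a test.

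**Figure D4:**
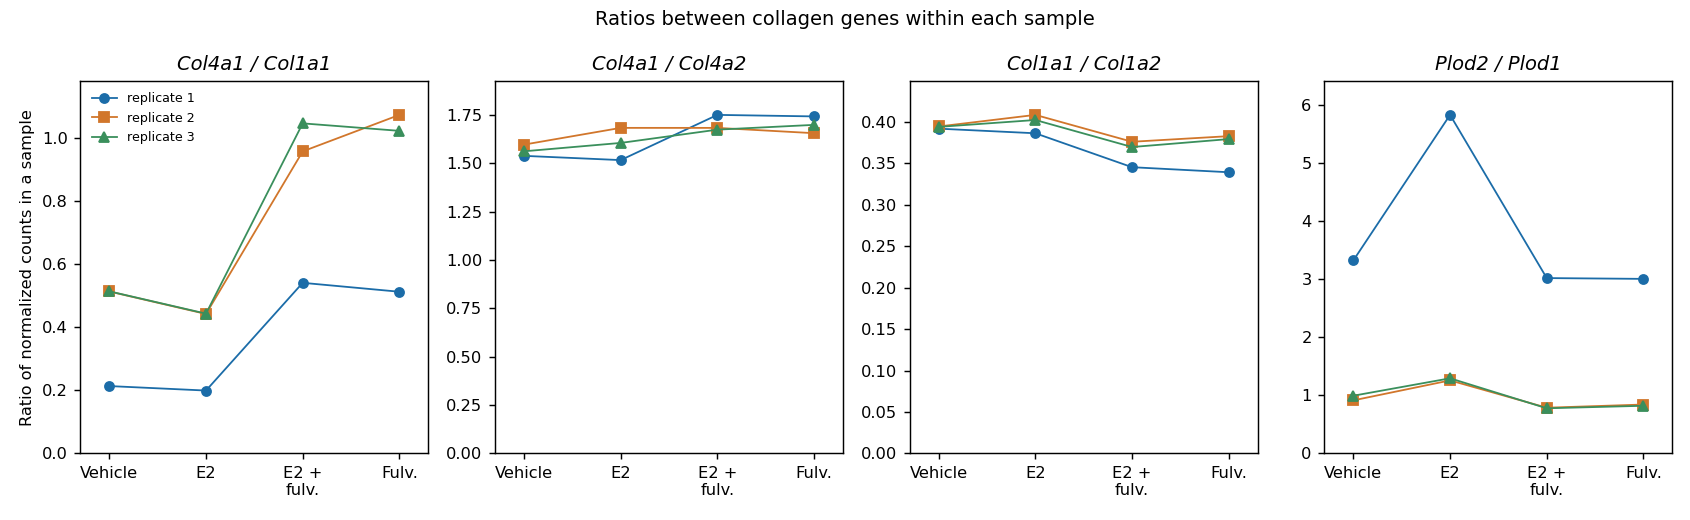
Ratio of normalized counts of 2 genes (vertical axis from 0, not per length) in each sample of the 4 groups, with replicate numbers joined. The Col4a1 to Col1a1 ratio was higher with fulvestrant in all 3 replicate numbers, the Col4a1 to Col4a2 ratio stayed between 1.52 and 1.75, and the Col1a1 to Col1a2 ratio stayed between 0.339 and 0.408, and the Plod2 to Plod1 ratio of replicate 1 lay above the others.

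E2 alone raised Col5a3 and Plod2. Col5a3 rose by 0.81 ± 0.09 (1.75-fold, adjusted p = 0.00749) and Plod2 by 0.84 ± 0.11 (1.79-fold, adjusted p = 0.0234), each in 3 of 3 replicate numbers. The Col5a3 call was lost without E2 replicate 3 (adjusted p = 0.081). The Plod2 call was lost in 6 of the 12 fits that left out 1 sample: those without any 1 of the 3 E2 samples, E2 plus fulvestrant replicate 2 or fulvestrant replicates 2 or 3 (highest adjusted p = 0.192). Without all of replicate 1, both were called (adjusted p = 0.0116 and 0.000376), with Col5a1, Col6a2 and P4ha3. Without all of replicate 2 or of replicate 3, neither Col5a3 (adjusted p = 0.153 and 0.455) nor Plod2 (0.649 and 0.591) was called. Type I and III chains were higher with E2 in every replicate number but did not pass, at 0.26 ± 0.09 for Col1a1, 0.24 ± 0.14 for Col1a2 and 0.29 ± 0.12 for Col3a1 (adjusted p from 0.468 to 0.553). The same test found the estrogen-responsive gene Pgr higher with E2, from a mean of 71.7 to 239 (1.88 ± 0.27, adjusted p = 0.0343).

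With fulvestrant present, E2 gave no called change: 0 of the 46 genes and 0.00% of all genes, with 2 of the 46 (Col5a3 and Loxl2) and 255 of all genes at an unadjusted p-value under 0.05. The differences between E2 plus fulvestrant and fulvestrant ran from -0.30 for Col12a1 to 0.33 for Col5a3. The 95% interval was -0.17 to 0.18 for Col4a1, -0.18 to 0.23 for Col1a1 and -0.20 to 0.30 for Plod2. Whether the change with E2 differed with and without fulvestrant was tested as an interaction, which called 0 of the 46 genes and 0.00% of all, with 5 of the 46 and 501 of all genes at an unadjusted p-value under 0.05. The largest difference was for Plod2, whose change with E2 was 0.84 without fulvestrant and 0.05 with it, an interaction of -0.78 ± 0.16 (adjusted p = 0.944). Without all of replicate 1, the Plod2 interaction was -0.67 ± 0.07 and was called (adjusted p = 0.0109), while its adjusted p ran from 0.189 to 1.00 under the other alternatives. For Col5a3 it was -0.48 ± 0.13 (adjusted p = 0.944).

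Of 29 listed genes for folding, transport, propeptide removal, binding and breakdown of collagen, 6 were called between E2 and E2 plus fulvestrant (20.7%, beside 9.60% of all genes), 7 between vehicle and fulvestrant (24.1%, beside 12.5%), and 0 in the other 2 pairwise comparisons (7 and 0 at an unadjusted p-value under 0.05, for E2 against vehicle and for E2 plus fulvestrant against fulvestrant). Without the block, 0 were called in each comparison (1, 3, 7 and 0 at an unadjusted p-value under 0.05). The list of these genes was chosen with earlier results of these data known, so the shares called are not independent of the data. In both fulvestrant comparisons 5 genes fell, although the blocked fit of the 2 groups alone called 4 of them with E2 present (not P3h2, adjusted p = 0.0557) and only Itga11 without it. Adamts3, which cuts amino propeptides, changed by -1.58 and -1.09, and P3h2, a prolyl 3-hydroxylase, by -0.64 and -0.65. Fkbp14, a folding enzyme, changed by -0.51 and -0.29, the collagen receptor subunit Itga11 by -0.37 and -0.39, and Creb3l1, a transcription factor of collagen secretion, by -0.31 and -0.28. Against vehicle, the adjusted p in the fit of the 2 groups was 0.0827 for Creb3l1, 0.0846 for P3h2, 0.0913 for Fkbp14 and 0.0937 for Adamts3. Adamts14 rose by 0.80 with E2 present, and Adamts2 by 0.43 and Itgb1 by 0.27 without it. These 3 calls were lost in the fit of the 2 groups (adjusted p = 0.0932, 0.156 and 0.226), and with CPM 4 genes were called without E2, all lower. Without all of replicate 1, 2 or 3, the counts of called genes were 6, 1 and 1 with E2 present, beside 12.2%, 2.58% and 2.39% of all genes, and 4, 1 and 0 without it, beside 17.5%, 4.08% and 3.02%.

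More collagen genes were called by replicate number than by any treatment, although these contrasts differ in size. The replicate contrast uses all 12 samples, and each treatment comparison sets 3 against 3. The SE of the replicate contrast is thus smaller, for Col1a1 0.070 against 0.094. Replicate 1 differed from the mean of replicates 2 and 3 in 30 of the 46 genes, 21 higher and 9 lower, beside 52.4% of all genes. Replicates 2 and 3 differed in 0 of the 46 and 0.00% of all genes, with 0 and 198 at an unadjusted p-value under 0.05. The labels give replicates 2 and 3 as separate samples, and they were counted so. Their reads differed by more than counting error (chi-square per degree of freedom of 4.30 to 23.5, against 179 to 224 for pairs with replicate 1), which does not show that they came from separate cultures.

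Over the 4 groups, replicate 1 was higher by 3.85 ± 0.10 for Col8a2, 3.07 ± 0.11 for Col12a1 and 1.86 ± 0.13 for Col20a1 (log2, SE). The difference was -2.64 ± 0.32 for Col6a5 and -0.95 ± 0.04 for Col18a1, both lower in replicate 1. Col11a1, a fibrillar chain known from cartilage, read 20735, 2246 and 2413 with vehicle, and Col6a5 read 13.2, 155 and 198. Type I chains were higher in replicate 1, by 0.89 for Col1a1 and 0.97 for Col1a2, while Col3a1 differed by -0.74. Fibroblast markers moved with the replicate number too: with vehicle Dcn ranged from 32211 to 107287 and Thy1 from 78.3 to 562, lowest in replicate 1 in both. In both fulvestrant comparisons the medians of 6 of the 7 fibroblast markers were lower with fulvestrant and that of Vim was higher. Between vehicle and fulvestrant Lum went from 3337 to 1271, Dcn from 102207 to 70600, Pdgfra from 33942 to 27501, Pdgfrb from 10591 to 9368, Thy1 from 524 to 507 and Vim from 49540 to 63672. Between E2 and E2 plus fulvestrant Lum went from 3737 to 1312, Dcn from 107933 to 76416, Pdgfra from 36773 to 30814, Pdgfrb from 9987 to 9634, Thy1 from 424 to 362 and Vim from 56521 to 59446. The estrogen receptor gene Esr1 fell in both fulvestrant comparisons (-2.26 ± 0.20 and -1.46 ± 0.20). The sum of the 7 ranged from 128526 to 205076 with vehicle, from 131979 to 175239 with fulvestrant, from 127784 to 228101 with E2 and from 130619 to 180100 with E2 plus fulvestrant. The labels do not say what the replicate numbers stand for, and the part of cell makeup in these differences was not tested.

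**Figure D5:**
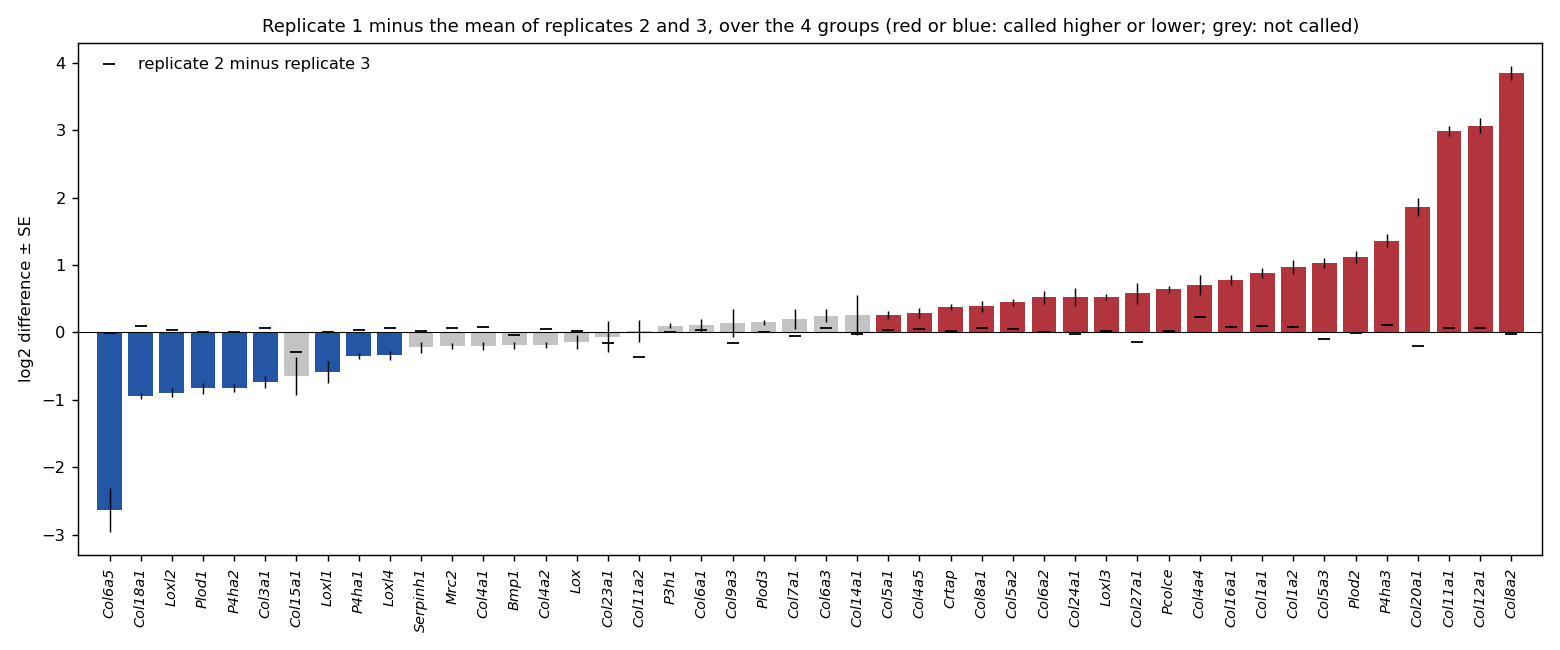
Log2 difference ± SE (vertical axis) between replicate 1 and the mean of replicates 2 and 3, over the 4 groups, for each of the 46 genes, with dashes for replicate 2 minus replicate 3. Of the 46 bars 30 are colored as called, from Col6a5 at -2.64 to Col8a2 at 3.85, and the dashes lie near 0.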

How the data were processed

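RNA was measured by RNA-Seq in 12 samples of primary HAFs, 3 in each of 4 groups, grouped and numbered as in the sample labels. Per the labels and the study's methods, the authors trimmed reads with Trimmomatic 0.39, aligned them to mm10 with STAR 2.5.2, counted them by gene and strand (reverse setting) with HTSeq 0.13.5, removed low counts and scaled with DESeq2 1.37 (median of ratios). The deposited values are a signal, counts divided by 1 factor per sample, which came back to whole reads (within 0.01) when multiplied by it. The study reports a batch adjustment, but the values still separated by replicate number. Library depth on listed genes was 18827792 to 44040507 reads, and at the smallest value, 8.27, counting error is large.

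Log2(value + 1) was fitted with limma 3.58.1 in R 4.3.3 over all 12 samples, with the replicate number as a block and a variance trend. Adding the pseudocount of 1 understates changes of low genes. Pairing follows the numbers in the sample labels: deviations of same-numbered samples from their group means correlated at 0.63 to 0.92 over 18 pairs (mean 0.76). Among replicates 2 and 3, pairs of different number correlated as well (mean 0.71 over 12 pairs) as those of the same number (mean 0.71 over 12), so the correlations separate replicate 1 and do not show which of replicates 2 and 3 belong together. The Benjamini-Hochberg adjustment covered 13233 genes. Symbols (13149 of 13233) and positions came from GENCODE M21, and levels per kb used the longest principal transcript. No member shared over 2.93% of its exon sequence with another gene on its strand. The fit was also run on simulated counts with 1 spread set for all genes, so that run does not cover genes whose spread differs. Promoter windows came from RefSeq. Python 3.11.15, pandas 2.3.3, numpy 2.4.6 and matplotlib 3.10.9 were used.

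The gene lists and tests were chosen with earlier results of these data known. Values in every sample were given for Col1a1, Col1a2, Col3a1 and for called genes, at most 20 by size of change. Mrc2 and, with E2 present, Loxl1 were added to the left-out samples, and interactions of Plod2 and Col5a3, Col11a1 and Col6a5 were picked after their values were seen. Alternatives were other blocks, pseudocounts, scalings, filters, call rules and left-out samples.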

Additional observations from a re-analysis of the deposited data

How the results depend on the processing

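The counts of called collagen genes rested on the replicate block. With no replicate block, in 1 fit over all samples or over only the 2 groups compared, 0 were called between vehicle and E2, 0 between E2 and E2 plus fulvestrant and 0 between vehicle and fulvestrant, and 0 genes of collagen handling in either fulvestrant comparison. With the 2 groups compared and the block, 10 were called between vehicle and fulvestrant, and of the collagen-handling genes 1 between vehicle and E2 and 1 between vehicle and fulvestrant. With no variance trend 0 were called between vehicle and E2, and 4 collagen-handling genes between vehicle and fulvestrant, as with CPM (4). Other pseudocounts, a mean of at least 100, quantile normalization, adjusted p alone and a block of replicate 1 against the others left the collagen counts within 1.5 times. Leaving out 1 sample or 1 replicate number gave 0 to 5, 4 to 21 and 8 to 20 collagen genes in these comparisons, 0 to 1 for the interaction, and 0 to 1, 1 to 6 and 0 to 9 collagen-handling genes. The cause was not tested.

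Reversals of direction concerned differences near 0. For E2 plus fulvestrant against fulvestrant, Col1a1 was -0.047 under quantile normalization and -0.038 to 0.097 with samples or replicate numbers left out, and Col1a2 was -0.032 to 0.13. The Col3a1 interaction was 0.12 under quantile normalization and -0.17 to 0.015 with samples or replicate numbers left out. Planned count tests with edgeR and DESeq2 on recovered reads were not run. Over all genes the calls were 10, 1270 and 1648 in the comparisons above, 1, 69 and 72 with no replicate block, and 57, 1148 and 692 with only the 2 groups compared and the block. Genes with low normalized counts in every sample, such as Col4a4, Col9a3 and Col15a1, are limited by depth.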
